A study of Medicago sativa with 6 samples.

Results

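Root nodules are the organs in which legumes house nitrogen-fixing rhizobia. Among the genes annotated in the alfalfa table at 450 or more nucleotides, 229 combined a high level in nodules with a much lower level in the other 5 tissues sampled. They were chosen by 3 conditions: a summed exon length of 450 nucleotides or more, 100 or more TMM CPM in nodules, and a nodule level 10 times or more that of every other library. TMM CPM are counts per 1000000 of a library total scaled by trimmed mean of M-values, a method that aligns the bulk of genes between libraries. Where a gene had no count in the other libraries, the level that 3 counts give there was used in their place. By this rule 229 genes were called, 0.169% of the 135646 genes of this length, out of 164633 genes in the table. Since the nodule level and its ratio to the next library chose the genes, both are given below as descriptions and not as findings.

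All libraries came from alfalfa (Medicago sativa, a tetraploid forage legume) of the genotype RegenSY27x, for which the labels give no mutation or treatment. Plants were kept at day and night temperatures of 22 and 18 °C under 16 hours of light, and the labels describe 3 harvested replicates per tissue. The RNA was pooled into 1 library each for nodules, roots, leaf, flower (flower buds, by the sample title), seedpod and stem. The growth protocol gives an age of 8 weeks, but the stage label has 20 in a unit that cannot be read, so the age was not settled. No rhizobial strain or nodule age is given in the sources used here. With 1 library per tissue no difference has a replicate check and no p-value is given, and every interval is a 95% exact interval that covers counting error only. In bulk tissue, more cells of a type and more RNA per cell cannot be told apart.

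As background, nodule cells that host the bacteria make leghemoglobins, which buffer free oxygen, and in relatives of the model legume Medicago truncatula large families of secreted nodule-specific cysteine-rich peptides, which drive the bacteria into their terminal form. Nodules are also known for nodulins of several kinds, carbonic anhydrases, proteases, transporters at the membrane around the bacteria, and enzymes that assimilate ammonium into glutamine and asparagine. The deposited identifiers carry no names for these genes, and none matched the available alfalfa gene table. The genes are therefore described by position, coding length and exons, and no role is assigned to any of them. The tissue labels could not be checked against marker genes for the same reason. Of the 229 lengths, 227 were multiples of 3, so the lengths are called coding lengths.

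The genes took a large part of the nodule library and almost none of the others. They held 9.44% of all nodule counts (9.42 to 9.46), against 0.249% in roots, 0.0781% in leaf, 0.0942% in flower, 0.0632% in seedpod and 0.0780% in stem. Their summed level was 114029 TMM CPM in nodules, against 2265.0 in roots, 962 in leaf, 844 in flower, 615 in seedpod and 662 in stem. Roots thus carried the most of the members' signal outside nodules. The median member stood at 222 TMM CPM in nodules, with quartiles of 147 and 406. Its counterpart medians were 2.76 in roots, 0.696 in leaf, 0.397 in flower, 0.446 in seedpod and 0.576 in stem. The 1647 genes of the same length that also reached 100 TMM CPM in nodules but were not enriched had medians of 168 in nodules, 111 in roots and 54.2 to 69.8 in the other 4 libraries.

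**Figure D1:**
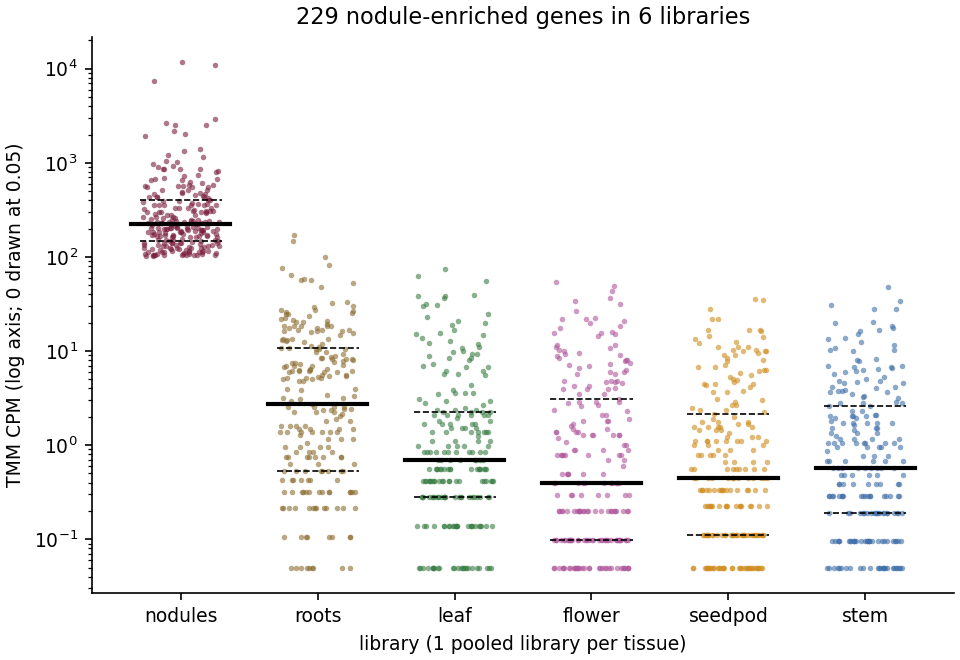
TMM CPM (log axis, 0 drawn at 0.05) of the 229 nodule-enriched genes in each of the 6 libraries, 1 point per gene, with the median as a solid line and the quartiles as dashed lines. The nodule points start at 102.8 by the rule, while the medians elsewhere lie between 0.397 in flower and 2.76 in roots.

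The same 3 conditions applied to each of the other libraries picked 192 genes in leaf (0.142%), 53 in seedpod (0.0391%), 34 in roots (0.0251%), 18 in flower (0.0133%) and 2 in stem (0.00147%). By this scaling the nodule and leaf libraries therefore had many more long, abundant, enriched genes than the other 4. They are also the libraries whose values TMM raised against library totals, by 0.27 and 0.30 on the log2 scale. With library totals the nodule number was 169, and no such number is given here for the other libraries. In nodules, 203 of the 229 genes (0.15% of those tested) still met the ratio of 10 at the lower end of the counting interval.

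A few genes carried much of the total. The most abundant member held 10.3% of the members' nodule counts, the first 2 held 20.0%, the first 3 held 26.6% and the first 10 held 41.3%. In nodules 128 members reached 200 TMM CPM, 45 reached 500, 16 reached 1000 and 9 reached 2000. Ordering by level per kilobase of coding length, which corrects for longer genes collecting more reads, left 8 of the 10 most abundant genes in the first 10. The median per kilobase was 227 CPM for the members and 151 for the genes not enriched.

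The leading pair shared a similar structure on chromosome 2. MS.gene040567 lies on sequence 2.3 (26805594 to 26807124, plus strand; sequences are numbered by chromosome and haplotype in the deposited annotation, whose build is not named), with 630 nucleotides in 4 exons. It had 11784 TMM CPM in nodules (11710. to 11859), 147 in roots, 15.3 in leaf, 6.26 in flower, 8.47 in seedpod and 7.78 in stem. Nodules stood 80.1-fold above roots (75.9 to 84.5), and roots stood well above the 4 aerial libraries. MS.gene039099 lies on sequence 2.2 (23205893 to 23207478, plus strand), with 669 nucleotides in 4 exons. It had 11052 TMM CPM in nodules, 169 in roots, 12.1 in leaf, 5.76 in flower, 6.80 in seedpod and 6.43 in stem, and the ratio to roots was 65.4 (62.2 to 68.8). They ranked 2 and 3 by level in the whole nodule library, with per-kilobase levels of 18705 and 16521 CPM. In both, exon 2 has 126 nucleotides and exon 3 has 120, whereas the outer exons differ in length, at 70 and 314 nucleotides in MS.gene040567 and 94 and 329 in MS.gene039099. A further member, of 573 nucleotides on sequence 2.4 (26284346 to 26285772), has exons of 13, 126, 120 and 314 nucleotides. It was much less abundant, with 2506 nodule counts against 96399 and 90415 in the leading pair. The profiles of the leading pair over the other 5 libraries had the same order at the top, roots and then leaf, and differed little among flower, seedpod and stem.

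The next most abundant member belongs to a group of short genes on chromosome 3. Its 465 nucleotides are split into exons of 52 and 413, a structure that 10 annotated genes of chromosome 3 share. This grouping by 2 exons was made after the values had been seen. Of the 10 genes, 6 were members and the other 4 stayed under 10 TMM CPM in nodules. Summed, the 6 members had 14381 TMM CPM in nodules, 182 in roots, 16.3 in leaf, 150.2 in flower, 9.14 in seedpod and 9.12 in stem, so that roots and flower held most of what lay outside nodules. The copies differed widely in how that remainder was divided.

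The copy on sequence 3.2 (30124555 to 30125233) was the strongest in nodules, at 7443 TMM CPM, with 48.0 in roots, 33.7 in flower, 8.50 in leaf, 4.12 in seedpod and 4.13 in stem. Its ratio to roots was 155 (141 to 171). On sequence 3.4, the copy from 33466975 to 33467653 had 2671 in nodules, 30.1 in roots and 43.4 in flower, with at most 3.48 in leaf, seedpod and stem. In this copy flower was the next library, unlike in the first. The copy on sequence 3.3 (29039380 to 29040056) had 1393 in nodules but only 1.59 in roots, 1.39 in leaf, 0.894 in flower, 0.780 in seedpod and 1.06 in stem. Its ratio of 875 (531 to 1565) was the highest of the 6.

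The remaining copies, all on sequence 3.4, went in different directions. The gene from 33075493 to 33076169 had 1036 TMM CPM in nodules, 99.7 in roots and 17.7 in flower, and passed the rule closely at 10.4 (9.71 to 11.1). The gene from 32629941 to 32630617 had 1013 in nodules, 5.66 in flower and 1.49 in roots. The gene from 32525912 to 32526586 had 825 in nodules, 48.9 in flower and 1.38 in roots. Among genes of 1 coding length and exon structure, the root level thus ran from 1.38 to 99.7 and the flower level from 0.894 to 48.9. Near-identical genes can share reads, and how the authors' counting divided such reads is uncertain, so values of single copies are less firm than their sum.

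The ratio of nodules to the next library had its lowest value at 10.005, its median at 47.4, its upper quartile at 316 and its highest value at 2875. A ratio of 20 was reached by 158 members, 100 by 88 and 500 by 42, and 71 members lay below 20. The nodule level said little about the ratio, with a Spearman's rho of 0.125 across the 229 genes, which share their 6 libraries and often their reads. Coding length and ratio had a rho of -0.229. The members' median ratio of 47.4 was lower than that of the 52 shorter genes that met the same level and ratio, 452. A ratio of 100 was reached by 38.4% of the members and by 36 of the shorter genes (69.2%).

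**Figure D2:**
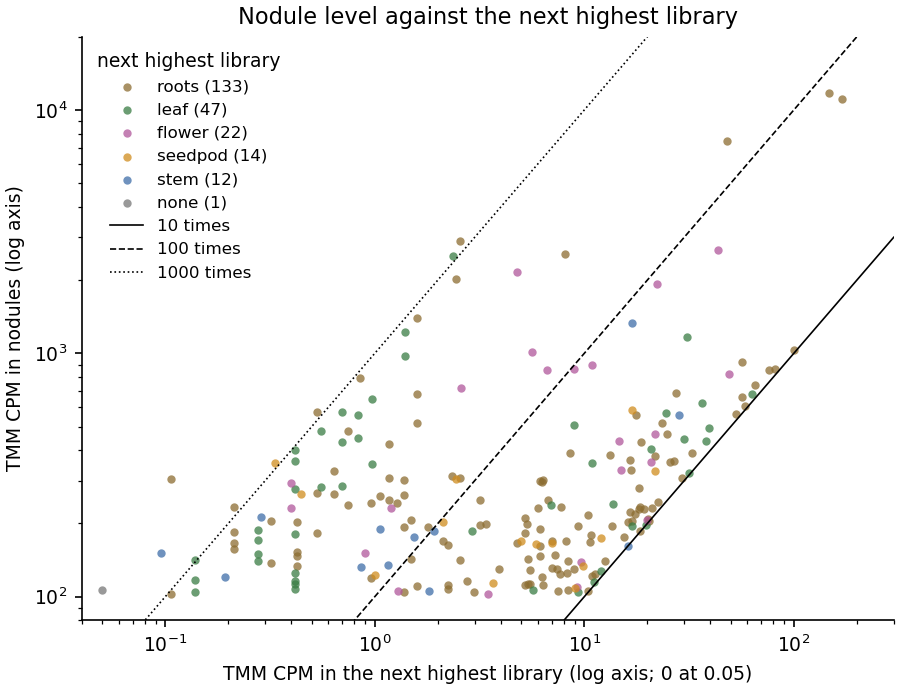
Nodule TMM CPM against the TMM CPM of the next highest library (both log axes, no count drawn at 0.05), 1 point per gene, coloured by that library, with lines at ratios of 10, 100 and 1000. Roots were the next library for 133 of the 229 genes, and the members reach from the line at 10 to beyond the line at 1000.

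Members at a ratio of 100 or more were mostly low elsewhere, which the split itself brings about. Over these 88 genes the median was 0.424 TMM CPM in roots, 0.279 in leaf, 0.149 in flower, 0.111 in seedpod and 0.192 in stem, and their nodule median was 254. Their counts elsewhere amounted, in the median, to 0.143% of the nodule count in roots, 0.0917% in leaf, 0.0616% in flower, 0.0593% in seedpod and 0.0867% in stem. Taken instead as summed counts over the 88 genes, the shares were 0.290% in roots, 0.0947% in leaf, 0.204% in flower, 0.0857% in seedpod and 0.101% in stem. Flower thus stood above the other aerial organs by the sum and not by the median. The sums include the most abundant of the 88, of 465 nucleotides on sequence 3.2 (30124555 to 30125233). It was not silent elsewhere, with 48.0 TMM CPM in roots and 33.7 in flower, or 339 flower counts. The part of reads carried between multiplexed libraries in these shares was not tested. Among the 141 members under a ratio of 100 the root share was 4.71%, against 0.585% in leaf, 0.856% in flower, 0.430% in seedpod and 0.820% in stem, so that roots stood apart. The split at 100 was chosen after the values had been seen.

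All 5 other libraries were under 1 TMM CPM for 56 members. A single member had no count outside nodules. It lies on sequence 4.1 (82502341 to 82503806, 501 nucleotides, 3 exons) and had 106 TMM CPM in nodules, at least 254-fold higher than elsewhere against a floor of 3 counts per library. The highest ratio belonged to a gene of 462 nucleotides and 4 exons on sequence 5.2 (68274664 to 68277194). It had 2495 counts in nodules, or 305 TMM CPM, 1 count in roots and none in leaf, flower, seedpod or stem, which gave 2875 (516 to 113594). Both genes were undetected or nearly so outside nodules at this depth.

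Roots, the organ on which nodules form, were the next library for 133 members (58.1%), leaf for 47 (20.5%), flower for 22, seedpod for 14 and stem for 12. Among the genes not enriched, the next library was roots in 35.5% and leaf in 35.4%. The next library stood above the second by more than counting error in 112 members, of which 77 had roots, 15 flower, 13 leaf, 5 seedpod and 2 stem. For the rest the order of the other libraries is not resolved. Set against roots alone, members with a root count had a median ratio of 67.6 (quartiles 20.6 and 486), or 105 with library totals in place of TMM, while all genes at 10 TMM CPM or more in nodules had 1.23.

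In roots 61 members reached 10 TMM CPM, against 25 in leaf, 25 in flower, 21 in seedpod and 19 in stem. Of those 61, 26 stayed under 10 in each of the other 4 libraries, and 6 stayed under 1 there, a pattern of nodules and roots alone. The strongest of these 6, chosen after its value was seen, was a single-exon gene of 618 nucleotides on sequence 2.3 (477654 to 478271). Its levels were 559 TMM CPM in nodules, 17.7 in roots, 0 in leaf and at most 0.557 in flower, seedpod and stem, with a ratio to roots of 31.5 (27.0 to 37.0). A member with 18 exons, the most of any, over 2820 nucleotides on sequence 3.4 (33853835 to 33862832) was also in this group. Its levels were 196 in nodules, 13.6 in roots and at most 0.418 elsewhere, and its ratio was 14.4 (12.1 to 17.4). A copy of the same structure on sequence 3.2 (30663008 to 30671432), also a member, had 131 in nodules, 7.002 in roots and 1.81 in leaf. It lay outside this group.

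The opposite case, a member almost without root counts but present in an aerial organ, was also found. A gene of 1737 nucleotides and 10 exons on sequence 1.3 (39141792 to 39145478) had the highest ratio to roots, 3376 (605 to 133392, from 1 root count). It had 358 TMM CPM in nodules, 20.8 in flower, 3.74 in stem, 1.89 in seedpod, 0.557 in leaf and 0.106 in roots. Flower was the next library by a wide margin, with nodules 17.3-fold above it (15.0 to 19.9).

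Stem was seldom next, and its lead held against counting error in a pair of genes. One, of 2748 nucleotides and 5 exons on sequence 4.2 (38393971 to 38397944), had 1334 TMM CPM in nodules, 16.9 in stem, 10.03 in seedpod and at most 2.88 in roots, leaf and flower. The other, of 684 nucleotides and 4 exons on sequence 2.4 (21228375 to 21230642), had 559 in nodules, 28.2 in stem, 10.03 in flower, 9.33 in leaf, 5.24 in seedpod and 0.530 in roots. Both had far less in roots than in stem.

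Broad expression under a high nodule level was seen in 7 members, which had 10 TMM CPM or more in all 5 other libraries. This number is limited by the rule, which set nodules at 10 times or more every other library. The share among other genes is not given here, so the pattern is not called rare. The highest seedpod and stem levels of any member were those of a single-exon gene of 1950 nucleotides on sequence 8.1 (37374362 to 37376311). It had 743 TMM CPM in nodules, 65.0 in roots, 47.6 in stem, 38.6 in leaf, 36.4 in flower and 35.4 in seedpod. The other libraries lay within a 2-fold range of each other, and nodules stood 11.4-fold above roots (10.5 to 12.4). The longest member, 4314 nucleotides in 17 exons on sequence 4.4 (10742675 to 10765885), was milder, with 222 in nodules, 16.6 in roots, 10.8 in stem, 9.47 in seedpod, 6.95 in flower and 6.13 in leaf.

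Alfalfa carries 4 haplotypes of each of 8 chromosomes, and many members had the structure of another member, on another haplotype or on the same one. Genes on the same chromosome number with the same chain of exon lengths, at 3 exons or more, were taken as copies of 1 structure. Of the members, 141 could be compared in this way and formed 112 structures. A copy on another haplotype was annotated for 85 of them (60.3%), against 67.8% of the genes not enriched and 60.7% of all genes of this length expressed at 10 TMM CPM in some library. In 50 members a copy was itself a member. There were 21 structures with several members: 14 with 2, 6 with 3 and 1 with 4. The 4 members of the last all lay on the same haplotype, on sequence 6.1.

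Of the 91 copies that were not members, 42 reached 10 TMM CPM in nodules, and 26 of those (61.9%) stood at 10 times the next library. Of all 16378 genes at that level in nodules, 920 did so (5.62%), which is 0.559% of all genes in the table. Copies can share reads with the member they resemble, so this share is a description. At the other extreme, 24 of the 91 copies were under 1 TMM CPM in nodules and 6 had no nodule count. In the 57 structures with a further copy, the strongest copy held a median of 75.02% of the summed nodule level, and in 23 it held 90% or more. By number of copies, the strongest held 93.3% with 2 copies, 68.7% with 3 and 65.0% with 4, against 88.0%, 78.5% and 72.0% in structures of genes not enriched. Dominance of 1 copy was thus no rarer in the comparison genes once 3 or 4 copies were annotated. Copies repeated on the same haplotype were counted too, so these shares do not measure dominance between haplotypes.

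Within the 21 structures the highest member ratio was a median of 1.22 times the lowest, with a range of 1.02 to 5.67. Only copies that passed the ratio rule enter this spread, and copies can share reads, so the likeness is a description. In 14 structures all members shared their next library. Of these 21, the 8 structures with the highest summed nodule level showed profiles of 4 kinds: near silence elsewhere, flower next, leaf or roots next, and an even low level in every organ.

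Near silence elsewhere marked the first. A structure of 501 nucleotides and 4 exons on chromosome 7 had copies on sequences 7.4 (39271138 to 39273884) and 7.1 (36879626 to 36881938). They had 2909 and 2520 TMM CPM in nodules, and between 0.960 and 2.55 in every other library. The remaining copy, on 7.3 (40472559 to 40474251), had 2 counts in nodules and none elsewhere. Summed, nodules stood 1190-fold above roots (883 to 1644), and one haplotype copy was nearly unread in every tissue. On chromosome 5, a structure of 462 nucleotides and 4 exons was similar. Its members had 1220. TMM CPM in nodules on 5.4 (63094933 to 63097946), 305 on 5.2 and 282 on 5.3 (64920845 to 64923269), and the remaining copy, on 5.1, had 69.1. No copy exceeded 1.39 in another library, and the ratio of the sums, with leaf next, was 927 (552 to 1696).

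Flower came next in 2 of the 8 structures. In a structure of 831 nucleotides and 5 exons on chromosome 4, the copies on 4.4 (13207747 to 13209991), 4.3 (13331929 to 13334387) and 4.1 (13070303 to 13073107) had 1928, 896 and 864 TMM CPM in nodules. In flower they had 22.1, 10.9 and 8.94, in stem 6.14, 4.03 and 3.36, and in roots 2.44, 1.38 and 1.91. Flower and then stem followed nodules in every copy, and the ratio of nodules to flower was 87.8 for the sums (79.7 to 96.8). A structure of 801 nucleotides and 8 exons on chromosome 3 had 2164 in nodules on 3.2 (68886922 to 68888644), 720.0 on 3.4 (74785894 to 74787621) and 679.9 on 3.3 (66201351 to 66203060). Flower had 4.77, 2.58 and 1.09 in the same copies, and roots had 2.33, 0.849 and 1.59, so the order of flower and roots was not the same in all 3. The remaining copy, on 3.1, had 9 counts in nodules.

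Leaf or roots came next in 3 structures. On chromosome 1, a structure of 1272 nucleotides and 14 exons had 680.1 TMM CPM in nodules on 1.3 (12485381 to 12489409) and 406 on 1.2 (12502692 to 12506971). Leaf had 63.0 and 20.8 in the same copies, roots had 24.6 and 14.7, and flower had 1.29 and 0.0993. Leaf exceeded roots in all 4 copies of this structure, including those on 1.1 and 1.4, which had 82.5 and 28.6 in nodules and ratios to leaf of 8.34 and 5.71. On chromosome 6, a structure of 840 nucleotides and 5 exons had 860.5 in nodules on 6.2 (5767543 to 5771414) and 195 on 6.3 (6192864 to 6196745). The copy on 6.2 had the highest leaf level of any member, 74.8, beside 81.3 in roots, and that on 6.3 had 16.9 in leaf beside 16.2 in roots. Roots and leaf were thus nearly level, at about the same proportion of nodules in both copies.

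The last of these 3, with 1920 nucleotides and 12 exons on chromosome 6, differed between its copies. The copy on 6.1 (74995226 to 75004834) had 1167 TMM CPM in nodules, 30.8 in leaf and 12.9 in roots, with 7.95 in flower, 4.68 in seedpod and 1.34 in stem. The copies on 6.2 (84461277 to 84469854) and 6.3 (79632995 to 79639657) had 208 and 151 in nodules and at most 1.49 in any other library. The ratio to the next library was 37.9 (33.2 to 43.5) on 6.1, against 140. (83.1 to 256) on 6.2 and 169 (88.9 to 371) on 6.3. The leaf signal of the structure lay almost wholly in 1 copy.

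An even low level in every organ marked the last of the 8, with 753 nucleotides and 5 exons on chromosome 2. The copy on 2.1 (51216382 to 51218469) had 919 TMM CPM in nodules, 56.4 in roots, 55.8 in leaf, 54.1 in flower, 35.0 in seedpod and 33.7 in stem, where the flower level was the highest of any member. The copies on 2.2 (44920400 to 44922483) and 2.4 (47332810 to 47334861) had 625 and 444 in nodules and 16.3 to 36.5 elsewhere. The ratios of the 3 members lay between 14.8 and 17.1, and the weak copy on 2.3, at 24.1 in nodules, had 14.2. The ratio to the next library was thus similar across a wide range of levels. The copy on 2.3 had only 7 to 16 counts in each other library, so its profile there is not resolved. Copies can share reads, so this likeness is a description.

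**Figure D3:**
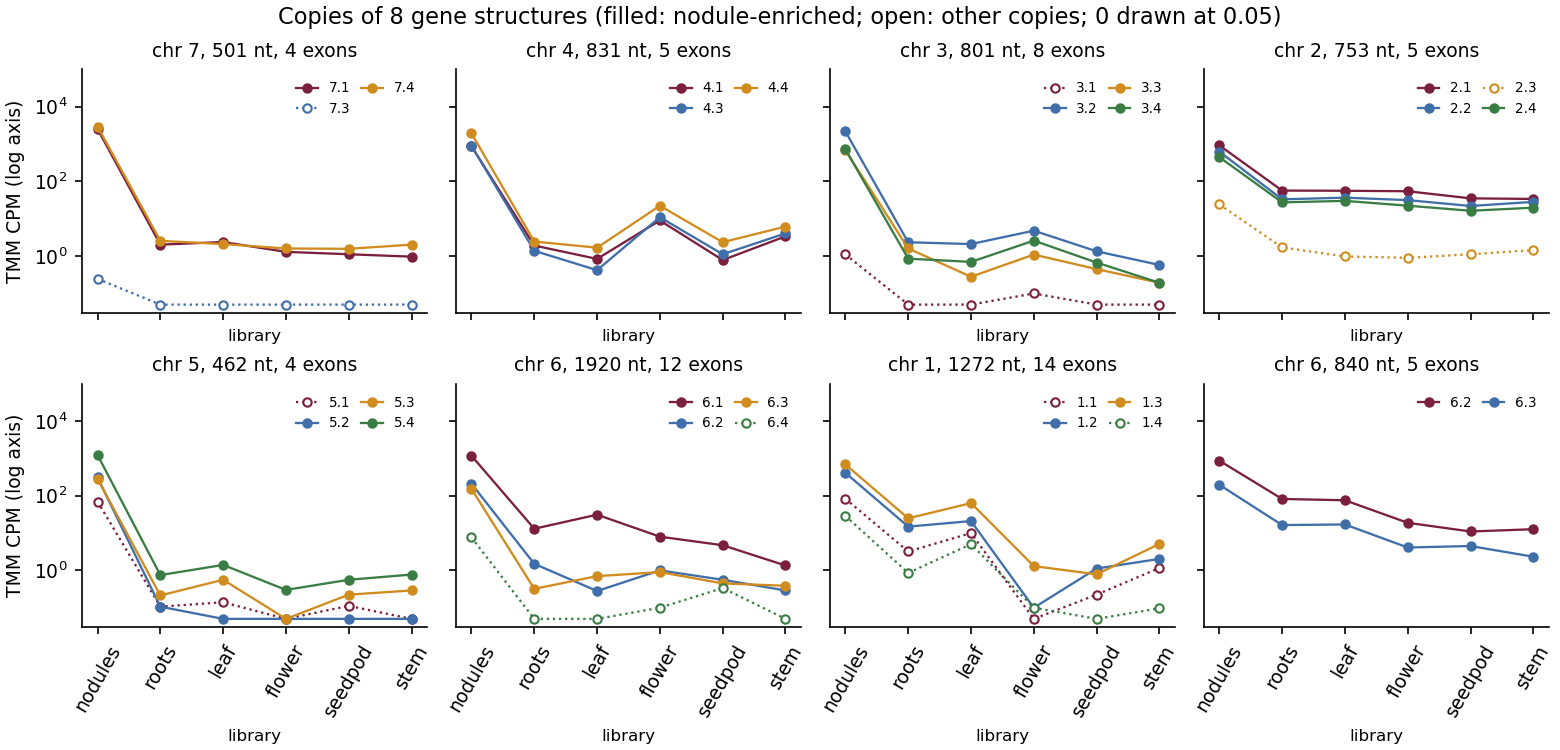
TMM CPM (log axis, 0 drawn at 0.05) in the 6 libraries for every copy of 8 structures, those with the highest summed nodule level among the 21 with several members, 1 line per copy named by its sequence, filled for nodule-enriched copies and open for the others. The copies of the chromosome 2 structure run level between 16.3 and 56.4 outside nodules in its members, whereas those of the chromosome 7 structure lie under 2.55.

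In 6 structures a member had a copy at 100 TMM CPM or more in nodules that failed the ratio, 7 copies in all with ratios of 1.14 to 9.21. Since the rule sorted these copies by ratio, their difference in ratio is a description. In 2 structures on chromosome 7 it was large. A structure of 1335 nucleotides and 16 exons had its member on 7.3 (10499634 to 10504234), with 161 in nodules, 6.15 in roots, 0.418 in leaf, 3.08 in flower, 4.46 in seedpod and 4.80 in stem. Its copy on 7.2 (9201408 to 9205996) had 2003 in nodules, 1116 in roots, 124 in leaf, 776 in flower, 680. in seedpod and 599 in stem. The copy was high in every organ, and the member had a small part of that level in each.

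A structure of 1095 nucleotides and 3 exons differed in seedpod above all. The member on 7.3 (36604498 to 36610246) had 207 TMM CPM in nodules, 19.9 in flower and 6.35 in seedpod. The copies on 7.2 (35181286 to 35185342) and 7.4 (34959353 to 34963203) had 197 and 213 in nodules, 19.8 and 28.2 in flower, and 82.7 and 187 in seedpod. These 3 copies had at most 3.48 in roots, leaf and stem. Their nodule and flower levels were close, and their seedpod levels were not. The remaining copy, on 7.1 (33261289 to 33265421), was lower throughout than those on 7.2 and 7.4, with 24.7 in nodules, 3.58 in flower and 10.1 in seedpod. In the other 4 structures the copies had like profiles on both sides of the threshold or differed in overall breadth. On chromosome 6, for example, a structure of 1077 nucleotides and 5 exons had its member on 6.2 (1718684 to 1724261) at 130. in nodules and at most 8.91 elsewhere. The copy on 6.3 (1881162 to 1886448) had 474 in nodules and 41.9 to 102 elsewhere.

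**Figure D4:**
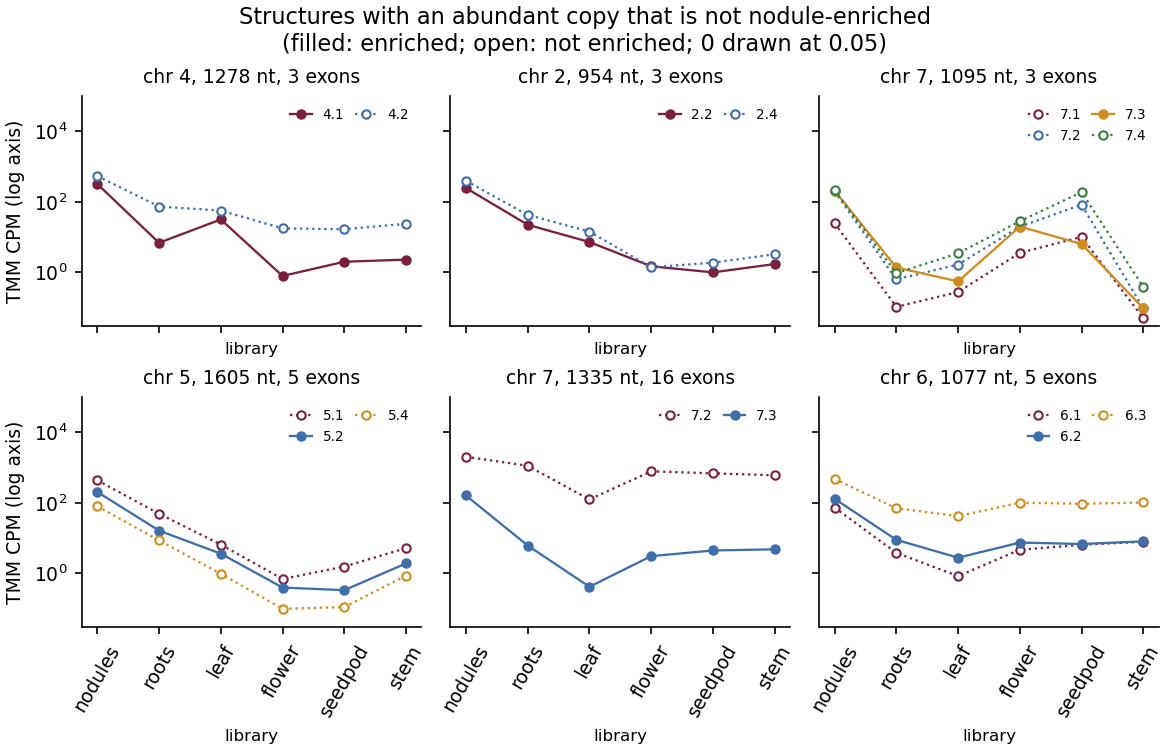
TMM CPM (log axis, 0 drawn at 0.05) in the 6 libraries for the copies of the 6 structures that hold both a nodule-enriched copy (filled) and an abundant copy that is not enriched (open). In the 1095-nucleotide structure on chromosome 7, seedpod runs from 6.35 in the enriched copy to 187, and the copy on 7.1 also lies lower in nodules, at 24.7, and in flower, at 3.58.

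Some members also lay next to each other. Within 100 kb of another member on the same sequence lay 38 members (16.6%), in 16 groups. Among the 1647 genes not enriched, 394 (23.9%) had another of them within 100 kb. That set is larger, so the shares are not like for like, and closeness is not shown as a trait of the members. There were 12 groups of 2, 2 of 3 and 2 of 4. In 12 groups all members were on 1 strand, in 10 they had the same exon number, and in 9 both held. The groups described here were picked after their values were seen.

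A run on sequence 3.3 (44782537 to 44850846) held 4 members on the plus strand, of 486, 450, 681 and 702 nucleotides with 1 to 4 exons. They had 431, 104, 2019 and 793 TMM CPM in nodules, no more than 2.44 in any other library, and ratios of 618 to 935. On sequence 6.1 (60887077 to 61028510), 4 members of 1653 nucleotides and 7 exons followed one another in the gene order. They had 111, 197, 163 and 200. in nodules and 1.59, 3.18, 2.23 and 3.39 in roots, with ratios of 58.8 to 73.2. Among structures of 3 or more exons, theirs had the most members. The first run was thus varied in structure and the second uniform. Ratios of the first run rest on few counts outside nodules, so their likeness is not resolved. Its 486-nucleotide gene, for example, had 5 leaf counts and a ratio of 618 (265 to 1906). The genes of the second run can share reads, so their similar ratios are a description.

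Neighbours did not always share their second organ. On chromosome 4, a member of 810 nucleotides and one of 831 nucleotides lay side by side on the minus strand of 4.3 and again of 4.4, each with 5 exons. On 4.3 the shorter gene (13326393 to 13328657) had 588 TMM CPM in nodules, 16.9 in seedpod, 10.8 in roots and 4.67 in flower. Its longer neighbour there had 896 in nodules, 10.9 in flower, 1.11 in seedpod and 1.38 in roots. On 4.4 the shorter gene (13197414 to 13199692) had 169 in nodules, 5.01 in seedpod and 0.795 in flower, and the longer one had 1928 in nodules, 2.34 in seedpod and 22.1 in flower. The order of seedpod and flower was reversed between the neighbours on both haplotypes.

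Another pair on 5.1 had 3 exons each, with 1656 nucleotides (76265486 to 76268492) and 1602 nucleotides (76272695 to 76275261). The levels in nodules were 2552 TMM CPM in the first and 650.1 in the second, and those in roots 8.06 and 0.743, so the neighbours differed more in roots than in nodules. On 1.1, 3 members of 1170 nucleotides and 2 exons (70435694 to 70449459) had 122, 280. and 141 in nodules and 10.9, 18.2 and 12.6 in roots. Their ratios of 11.1 to 15.3 placed all 3 close to the threshold. None of the 229 members overlapped the span of another annotated gene, on either strand. The share among all genes is not given here, so no contrast is drawn.

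Gene structure was not part of the rule apart from the length limit. The members had a median of 3 exons (quartiles 2 and 5), against 5 (2 and 9) in the genes not enriched and 5 in all genes of this length expressed at 10 TMM CPM or more in some library. Median coding length was 1077 nucleotides in members, 1239 in genes not enriched and 1302 in all expressed genes. The median span from first to last exon was 2141, 2962 and 3386 base pairs in the same order. With genes as the units and copies among them there is no independent replication, and these differences have no test.

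The difference lay mostly at the multi-exon end. Of the members 16 (6.99%) had 10 or more exons, against 376 (22.8%) of the genes not enriched. Members had 2 exons in 18.8% of cases and 5 exons in 16.2%, against 11.3% and 9.71%. Single-exon genes made up 19.7% of the members and 16.1% of the genes not enriched. This smaller gap was not tested, since copies among the genes are not independent. Introns themselves were of like size, with a median over genes of 380. nucleotides per intron in members and 370. in genes not enriched. Within the members, those at a ratio of 100 or more had a median coding length of 870. nucleotides and 12.5% single-exon genes, against 1170. and 24.1% in those below it.

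**Figure D5:**
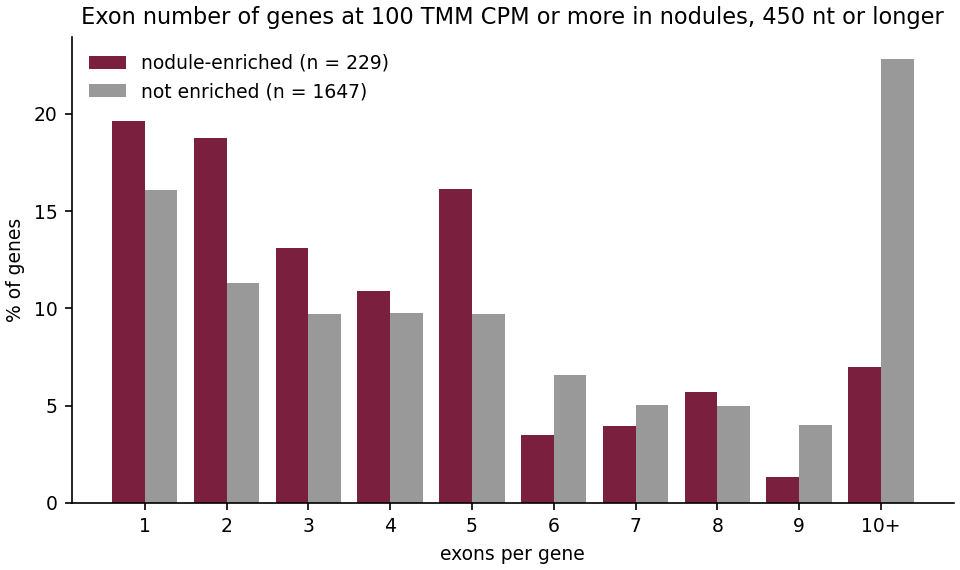
Percent of genes by number of exons (10 or more pooled) for the 229 nodule-enriched genes and the 1647 genes of 450 nucleotides or more that reach 100 TMM CPM in nodules without being enriched. Bars for 10 or more exons stand at 6.99% and 22.8%, and those for 5 exons at 16.2% and 9.71%.

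Members lay on all 8 chromosomes, with 39 on chromosome 4, 36 on chromosome 5 and 32 each on chromosomes 1 and 3. Chromosome 8 had the fewest, 15 (6.55%), against 13.0% of the genes not enriched, and chromosome 6 had 10.5% against 7.89%. The haplotypes were filled evenly, with 55, 52, 60 and 61 members on haplotypes 1 to 4.

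The limits of the rule cut through a continuous range. The lowest levels inside were 102.8 and 102.9 TMM CPM, and the nearest genes outside had 99.9 and 98.8. The lowest ratios inside were 10.005 and 10.007. The first was that of a single-exon gene of 1455 nucleotides on 8.1 (6193711 to 6195165), with 161 in nodules, 16.1 in stem and 13.4 in roots. The nearest ratios outside were 9.901 and 9.877. The shortest members had 450 and 456 nucleotides, while a pair of enriched genes of 447 nucleotides just outside had 2960. and 1433 in nodules. Near each limit, 18 members had a ratio under 11, 16 a level under 110 TMM CPM and 22 a length under 500, and 21 enriched genes of 400 nucleotides or more were left out by length.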

How the data were processed

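One RNA-seq library of pooled RNA per tissue was used. The authors deposited raw counts per gene with exon positions, strand and exon length, per the file headers. Per the submitters' processing notes, the tools were Trimmomatic, FastQC, featureCounts and edgeR, whose versions are not given. Not given in the sources used here are the aligner, the build, the strand setting and the counting of multi-mapping reads, which leaves counts of near-identical haplotype copies uncertain. Library totals ran from 8568581 counts in roots to 9883512 in nodules, so that 1 nodule count was 0.122 TMM CPM. Of the identifiers, 0 occurred among the 63463 RefSeq genes of the Bolivia_mono assembly, so lists of named nodule genes could not be resolved.

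Scaling factors came from edgeR 4.0.16 (TMM, all genes, 6 libraries) in R 4.3.3, with DESeq2 1.42.0 size factors as an alternative. Selection and ratios were computed with Python 3.11.15, pandas 2.3.3, numpy 2.4.6, scipy 1.17.1 and matplotlib 3.10.9, and the selection was tested on simulated data. Levels have exact Poisson intervals, ratios exact conditional binomial (Clopper-Pearson) intervals and shares exact Clopper-Pearson intervals, each at 95%. They cover counting error only, since each tissue had 1 library. The reads carry no molecular identifiers, and each counted read was taken as independent. Alternatives changed the scaling, the thresholds, the low-count filter and the libraries compared.

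The members, gene structures and comparisons were chosen with earlier results of these data known. Identifiers are printed for the 2 members with the highest nodule level. By rule, the text describes the 8 structures with the highest summed nodule level among those of 3 or more exons with 2 or more members, the members with extreme ratio, length, exon number or level in another organ, and the genes nearest each limit. Other genes were picked after their values were seen.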

Additional observations from a re-analysis of the deposited data

How the results depend on the processing

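Relative to library totals, TMM moved nodule values by 0.27 and leaf values by 0.30 on the log2 scale, and roots by -0.14, flower by -0.16, seedpod by -0.04 and stem by -0.24. Library totals left 169 members, all among the 229, and DESeq2 size factors gave 228, with 226 shared. The number of members was 355 at 50 TMM CPM, 128 at 200 TMM CPM, 358 at 5 times the next library and 410 without roots. The median ratio of nodules to roots, 67.6 as reported, was 105 with library totals. Roots were the next library for 204 of the members found without leaf. The share of nodule counts, 9.44% as reported, was 8.34% with library totals, 8.96% with upper-quartile factors, 9.395% with factors from genes of 10 or more counts, 10.2% at 50 TMM CPM and 8.23% at 200. It was 12.9% at 5 times and 7.64% at 20 times the next library, 15.5% from 300 nucleotides and 6.98% from 600. It was 8.82% with the ratio held to the lower end of its interval, 13.8% without roots, 11.9% without leaf and 9.23% with the level taken per kilobase. The other 48 recomputed values stayed within 1.5 times the reported value and, for shares and medians, within its 95% binomial interval. No paired analysis was possible because each tissue had 1 library, and for the same reason no replicate could be left out. Depth limits ratios that rest on few counts: a count in roots was worth 0.106 TMM CPM.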
